A study of Homo sapiens with 4 samples.

Results

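The 10 small nucleolar RNA (snoRNA) host genes GAS5, SNHG1, SNHG3, SNHG5, SNHG6, SNHG7, SNHG8, SNHG12, SNHG15 and SNHG16 were examined on 4 expression arrays. They were chosen by name, as every probe whose gene name in the scanner files is 1 of these 10, and all 10 were found among 43305 gene names. Expression was measured in HN4 and HN30, which are established human cell lines of head and neck squamous cell carcinoma (HNSCC), and in HN4_CR and HN30_CR, their cisplatin-resistant derivatives. Cisplatin is a platinum drug that crosslinks DNA. The resistant lines were derived by raising the cisplatin dose step by step, and the sample labels add that they were kept for 48 h in medium with 20 μM of the drug, which the labels do not give for the parental lines. Resistance and the presence of the drug therefore cannot be told apart. Each of the 4 conditions had 1 one-colour (Cy3) Agilent array, so no test compares a resistant line with the line it came from. Below, a level is the log2 processed signal of a probe minus the 75th percentile of all spots of its array, and a difference is the level on the resistant array minus the level on the parental array. The scanner software's own error gave each difference of the members' probes well above background an SD of 0.20 to 0.21 (scanner SD), which does not include the variation between cultures. This SD was nearly the same for all of these probes, so it is not a spread measured for each of them. Between repeated spots of the same probe, the median SD of the log2 signal was smaller, 0.023 to 0.028 on an array.

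A snoRNA host gene is transcribed as a long precursor whose introns hold snoRNAs, and splicing releases them. The snoRNAs then guide chemical marks onto ribosomal RNA, box C/D snoRNAs placing methyl groups on the ribose and box H/ACA snoRNAs turning uridine into pseudouridine. The spliced exons of these host genes mostly code for no protein. Many of the spliced RNAs begin with a 5′ terminal oligopyrimidine (TOP) run, which ties their translation to growth signals, and several are removed by nonsense-mediated decay, a pathway that destroys RNAs with an early stop codon while they are translated. The members and the snoRNAs have separate probes on the array, and whether a member's probe lies in an exon was not analysed here.

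All 4 arrays shared 1 slide and 1 scan. On each of them 55.3% to 63.6% of the spots were well above background, and no spot was saturated. Of 12 epithelial markers, 11 were well above background on every array, and KRT6A on 3 of them. Past a log2 difference of 1, 5 were higher and 1 lower in HN4_CR, beside 9.31% and 8.65% of all genes, and 1 was higher and 3 lower in HN30_CR, beside 19.8% and 13.3%, with differences of -4.05 and -1.93 for KRT5 and of 3.29 and 0.19 for KRT17. KRT6A read -2.97 in HN4, 0.35 in HN4_CR, 2.57 in HN30 and -5.87, not well above background, in HN30_CR. Their summed level was 9.18 in HN4, 9.14 in HN4_CR, 9.26 in HN30 and 8.48 in HN30_CR. Of the 6 fibroblast markers, COL1A2, COL3A1, DCN and LUM were well above background on no array, and COL1A1 and PDGFRB on all 4. COL1A1 differed by 1.73 in HN4_CR and 2.43 in HN30_CR, and PDGFRB by -0.01 and 0.63. Of the 4 endothelial markers, KDR was well above background on no array, PECAM1 on 2, VWF on 3 and CDH5 on all 4. CDH5 differed by -0.62 in HN4_CR and -0.59 in HN30_CR, VWF read higher than on the parental array in both lines, and PECAM1 lower in HN4_CR and higher in HN30_CR. Of the 5 leukocyte markers, PTPRC, CD14 and ITGAM were well above background on all 4 arrays, with differences of -0.10 and 0.16 for PTPRC and of 1.53 and 2.06 for ITGAM. The summed level of the fibroblast markers was -1.34 in HN4, 0.04 in HN4_CR, -2.16 in HN30 and -0.37 in HN30_CR, and that of the endothelial markers ran from -2.16 to -1.66. The summed level of the 5 leukocyte markers was 1.90 in HN30 and 5.32 in HN30_CR, and CD14 alone read 1.82 and 5.30 there. The part of these markers in the results below was not tested. In bulk RNA, fewer cells with a transcript and less of it in each cell cannot be told apart.

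The members were covered by 26 probes of 60 bases. On all 4 arrays 24 of the probes were well above background, and 2, a probe each of SNHG1 and SNHG8, were not well above background on any array. The probe of a gene with the highest mean level stood for that gene (its representative probe), and by it all 10 members were well above background on all 4 arrays. SNHG3, SNHG12 and SNHG16 had 1 probe each, and SNHG8 had 1 usable probe.

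In HN4_CR, SNHG8 and SNHG12 lay above HN4 by more than 1 on the log2 scale, and no member lay below it by more than 1. These were 2 of 10 members, where 9.31% of all 26853 genes counted were higher by this rule and 8.65% were lower. In HN30_CR, GAS5 and SNHG8 were higher by more than 1 and SNHG15 was lower by more than 1. These were 2 and 1 of 10 members, where 19.8% of 28330 genes were higher and 13.3% were lower. No member passed a log2 difference of 2 in either line, the size that 5.81% of genes passed in HN4_CR and 11.1% in HN30_CR, both directions together. SNHG8 was thus past the threshold in both lines, GAS5 and SNHG15 in HN30_CR, and SNHG12 in HN4_CR, and whether the lines differed was not tested.

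The members' median difference was -0.07 in HN4_CR and 0.18 in HN30_CR, beside -0.08 and 0.06 over all genes counted. The members were bright, and the arrays differed with brightness. Among the 2179 genes whose mean level lay within the members' range, 4.07 to 7.59, the median difference was -0.12 in HN4_CR and -0.55 in HN30_CR. Of these bright genes 29.05% were lower by more than 1 in HN30_CR and 4.08% were higher, while in HN4_CR the shares were 6.20% and 2.34%. In HN30_CR the members' median thus lay above that of genes of like brightness.

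**Figure D1:**
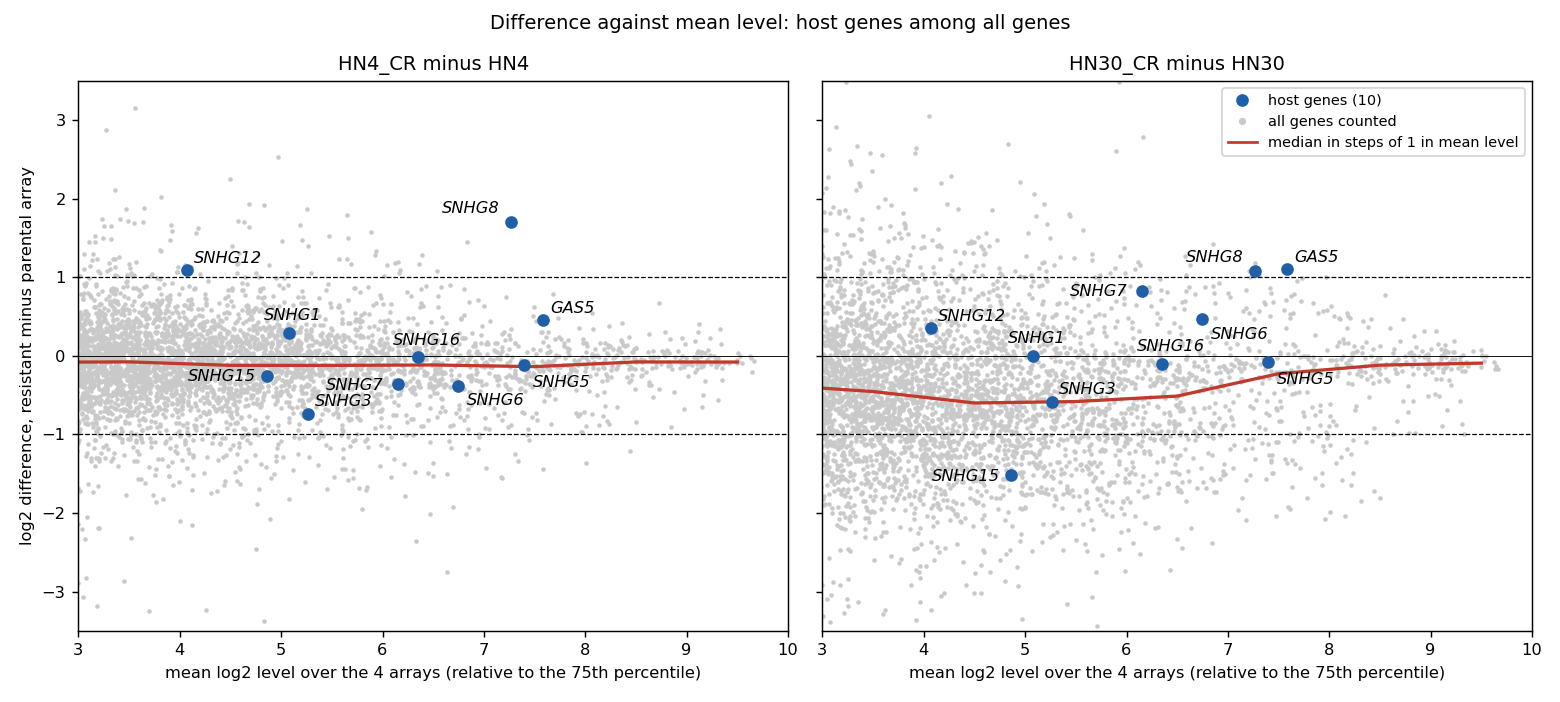
Log2 difference, resistant minus parental array (vertical axis), against the mean log2 level over the 4 arrays (horizontal axis, relative to the 75th percentile), for HN4 (left) and HN30 (right). Blue points are the 10 host genes, grey points all genes counted, red lines the median of grey points in steps of 1, and dashed lines a difference of 1 in either direction; genes outside the axes are not drawn. In HN30_CR most bright genes lie below 0, while GAS5 and SNHG8 lie just above 1 and SNHG15 lies below -1.

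The counts in HN30_CR rested on how the arrays were scaled. With each array centred on its median instead, the median of all genes in HN30_CR went from 0.06 to -0.34, the shares of all genes became 13.8% higher and 23.3% lower, and no member was higher while SNHG15 was still lower. With the 75th percentile taken over probes instead of spots, a choice made after seeing the data, GAS5 was at 0.97 and SNHG8 at 0.94 in HN30_CR, just under the threshold. After quantile normalization, with the trend taken off and in the deposited table, SNHG7 passed as well, at 1.30, 1.31 and 1.35, so that 3 members were higher. The calls of SNHG8 and SNHG12 in HN4_CR were the same under every scaling run.

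**Figure D2:**
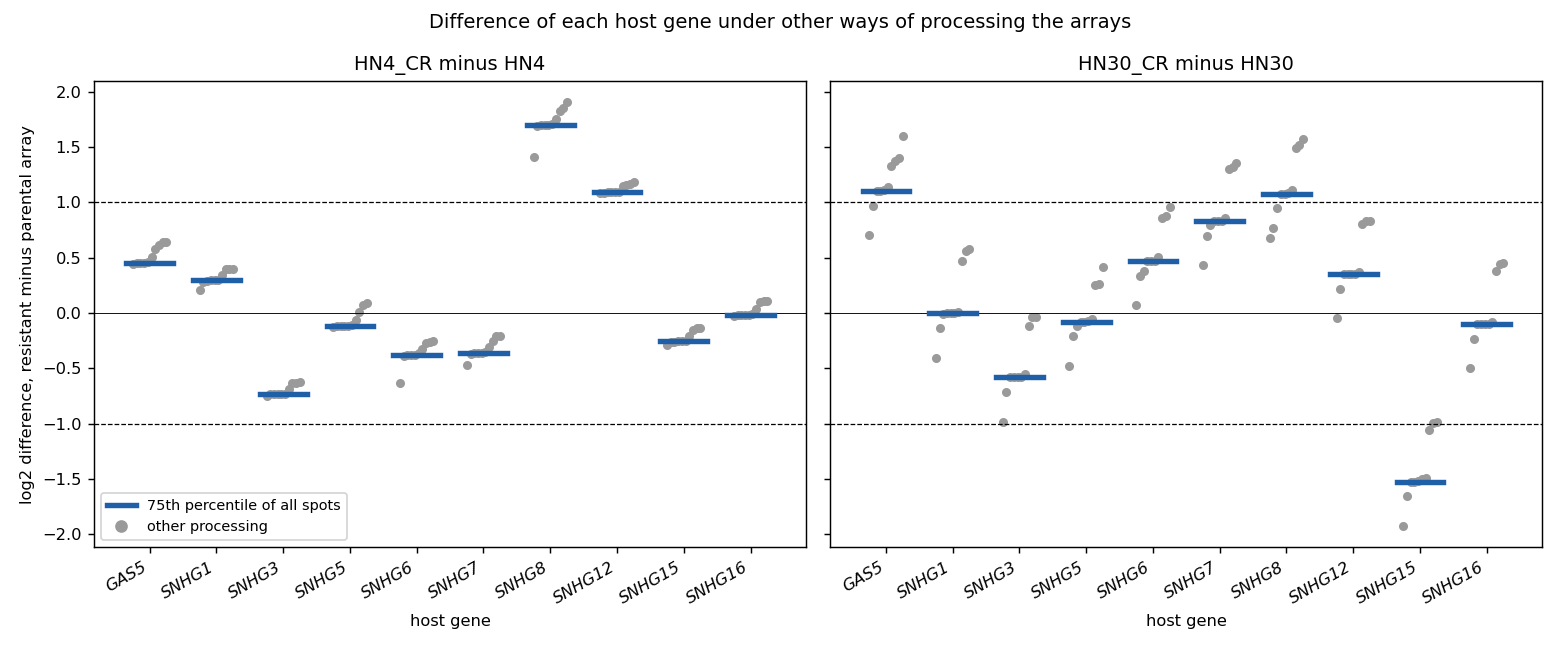
Log2 difference of each host gene, resistant minus parental array (vertical axis), in HN4 (left) and HN30 (right). Blue bars are the values with the 75th percentile of all spots, grey points those under other ways of processing, and dashed lines a difference of 1. In HN30_CR GAS5 runs from 0.70 to 1.60, SNHG8 from 0.68 to 1.57 and SNHG15 from -1.92 to -0.98. In HN4_CR SNHG8 runs from 1.41 to 1.90, where 1.41 is a mean that takes in its probe not well above background.

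SNHG8, the host of the H/ACA snoRNA SNORA24, was the member with the largest difference in HN4_CR. Its sequence is shown because it is the only probe that carries this result, at chr4:119200825-119200884 (hg19, plus strand):
SNHG8 A_32_P38467: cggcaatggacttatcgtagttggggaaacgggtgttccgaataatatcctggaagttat
The level of SNHG8 was 6.66 in HN4, 8.36 in HN4_CR, 6.48 in HN30 and 7.56 in HN30_CR. Both resistant arrays lay above both parental arrays, and the parental arrays were within 1 scanner SD of each other. The difference was 1.70 in HN4_CR, a 3.25-fold higher signal, and 1.08 in HN30_CR, 2.11-fold. Under the other ways of processing it ran from 0.68 to 1.57 in HN30_CR. The second SNHG8 probe has no coordinates in the files and was not well above background on any array, so it gave no check of the first.

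GAS5, named for its accumulation in growth-arrested cells, is the host of a row of box C/D snoRNAs, and its spliced RNA is also known to bind the glucocorticoid receptor. It had 2 probes, which gave different sizes. The representative one is shown, at chr1:173833049-173833108 (hg19, minus strand):
GAS5 A_33_P3326285: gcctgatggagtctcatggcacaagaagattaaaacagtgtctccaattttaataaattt
This probe read 7.23 in HN4, 7.68 in HN4_CR, 7.16 in HN30 and 8.27 in HN30_CR. The other probe read 4.61 in HN4, 5.39 in HN4_CR, 4.60 in HN30 and 6.30 in HN30_CR. By both probes each resistant array lay above each parental array, and the parental arrays were within 1 scanner SD. The differences were 0.45 and 0.78 in HN4_CR and 1.10 and 1.70 in HN30_CR, so by both probes the difference was larger in HN30_CR, by 0.65 and 0.92, with a scanner SD of 0.29. With arrays centred on the median, the representative probe differed by 0.51 in HN4_CR and 0.70 in HN30_CR, a gap within that SD.

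SNHG12, the host of SNORA16A, SNORA44, SNORA61 and SNORD99, had 1 probe, listed over chr1:28905179-28906090 (hg19, minus strand), a span longer than the probe itself:
SNHG12 A_23_P74581: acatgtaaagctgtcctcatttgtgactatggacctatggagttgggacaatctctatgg
Its level was 3.71 in HN4, 4.80 in HN4_CR, 3.71 in HN30 and 4.06 in HN30_CR. The parental arrays read alike, and HN4_CR stood above the other 3 arrays. The difference was 1.09 in HN4_CR (2.13-fold) and 0.35 in HN30_CR (1.28-fold). Under the other ways of processing it stayed at 1.08 to 1.19 in HN4_CR, while in HN30_CR it ran from -0.05, with arrays centred on the median, to 0.83 in the deposited table.

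SNHG15, the host of SNORA9, was the only member lower by more than 1 in either line. Its 3 probes read the gene at separate places on the minus strand of hg19 chromosome 7 and are shown because all 3 lay below 0 in both lines. They lie at chr7:45022851-45022910, chr7:45023449-45023508 and chr7:45026163-45026222, in this order:
SNHG15 A_24_P506977: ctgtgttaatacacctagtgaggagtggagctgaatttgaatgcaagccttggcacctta
SNHG15 A_22_P00015052: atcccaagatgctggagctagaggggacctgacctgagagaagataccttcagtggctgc
SNHG15 A_22_P00015051: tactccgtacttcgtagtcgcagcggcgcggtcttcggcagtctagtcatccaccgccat
The first probe read 4.79 in HN4, 4.54 in HN4_CR, 5.82 in HN30 and 4.30 in HN30_CR. HN30 stood above the other 3 arrays, by 1.03 above HN4, and the other probes gave 1.04 and 1.09 for that gap between parental lines. The probes gave differences of -1.27 to -1.67 in HN30_CR and of -0.17 to -0.43 in HN4_CR. By the first probe the signal in HN30 was 2.87-fold that in HN30_CR. After quantile normalization of the arrays this difference was -0.98, and -0.99 in the authors' deposited table, just inside the threshold.

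**Figure D3:**
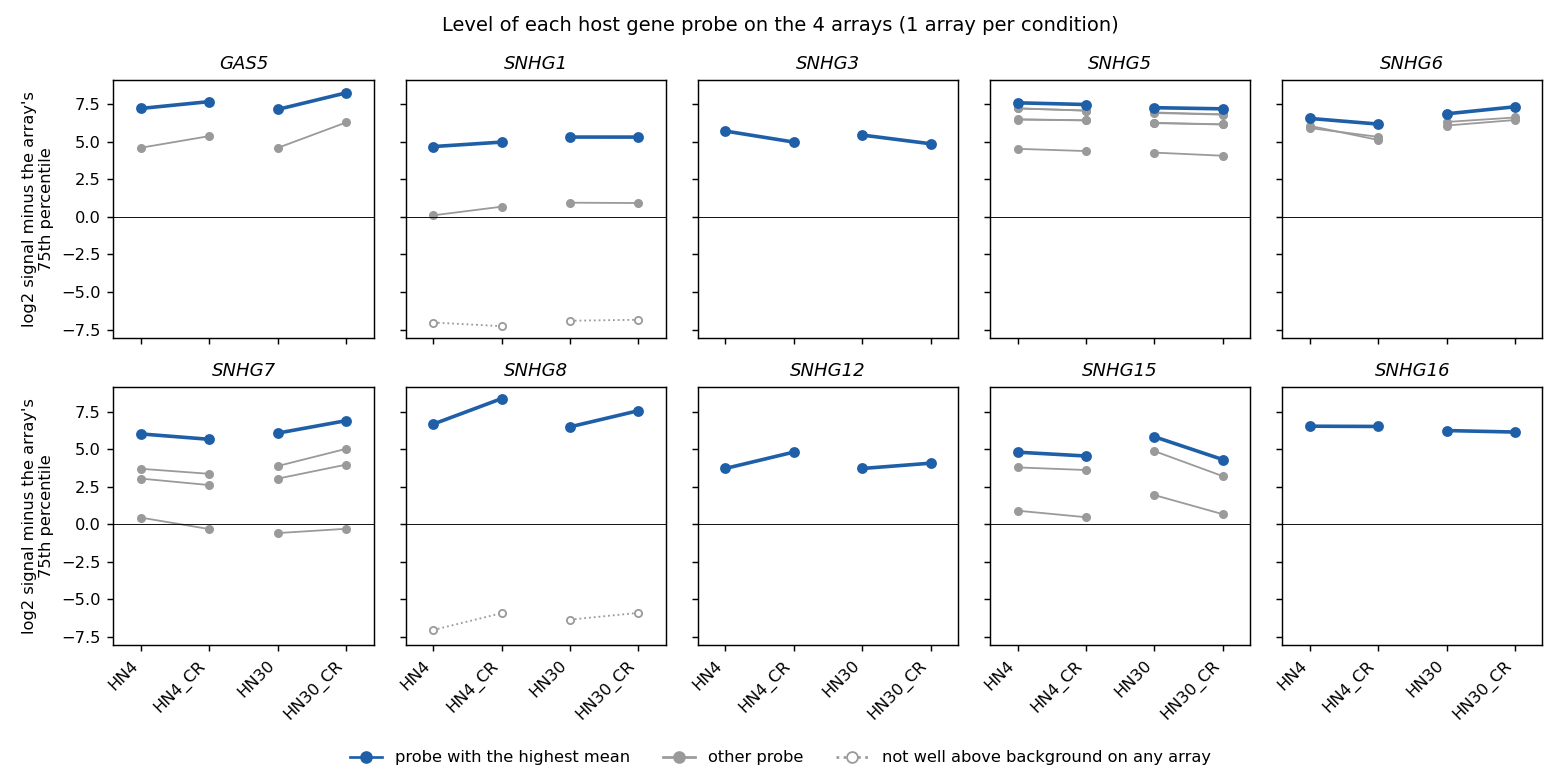
Level of every member probe (log2 signal minus the array's 75th percentile, vertical axis) on the 4 arrays (horizontal axis), 1 panel per host gene. Blue marks the probe with the highest mean, grey the other probes and open symbols the probes not well above background on any array; lines join a parental array to its resistant array. SNHG8 and GAS5 slope up in both lines, SNHG15 slopes down most in HN30, and SNHG6 and SNHG7 slope in opposite directions.

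SNHG6 and SNHG7 lay lower in HN4_CR and higher in HN30_CR, by every probe. SNHG6, the host of SNORD87, read 6.57 in HN4, 6.19 in HN4_CR, 6.87 in HN30 and 7.34 in HN30_CR by its representative probe. Its 3 probes gave differences of -0.38 to -0.94 in HN4_CR and of 0.30 to 0.47 in HN30_CR. SNHG7, a host of H/ACA snoRNAs, read 6.01 in HN4, 5.65 in HN4_CR, 6.06 in HN30 and 6.89 in HN30_CR. Its 4 probes gave -0.34 to -0.76 in HN4_CR and 0.28 to 1.15 in HN30_CR, a spread of 0.86 between probes that was wider than for any other member. For both genes all these differences were larger than the scanner SD, HN30_CR was the highest of the 4 arrays and HN4_CR the lowest by the representative probe.

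The SNHG7 probes that gave the smallest and the largest difference in HN30_CR were assigned to different transcript records in the files, NR_003672 and NR_024543. They lie on the minus strand of hg19, at chr9:139619969-139620028 and chr9:139620797-139620856:
SNHG7 A_24_P352116: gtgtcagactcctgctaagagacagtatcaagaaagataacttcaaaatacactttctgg
SNHG7 A_22_P00009029: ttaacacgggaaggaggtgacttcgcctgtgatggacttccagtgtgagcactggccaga
The first read 0.43 in HN4, -0.33 in HN4_CR, -0.60 in HN30 and -0.31 in HN30_CR. The second read 3.69 in HN4, 3.35 in HN4_CR, 3.87 in HN30 and 5.02 in HN30_CR. Between the parental lines, HN30 minus HN4, the first gave -1.03, while the other 3 SNHG7 probes gave -0.00 to 0.18.

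SNHG3, the host of the U17 snoRNAs, lay below its parental level in both resistant lines, within the threshold. Its level was 5.72 in HN4, 4.99 in HN4_CR, 5.46 in HN30 and 4.88 in HN30_CR. Both resistant arrays lay below both parental arrays, with differences of -0.74 and -0.58, and the resistant arrays were within 1 scanner SD of each other. In HN30_CR the difference was -0.98 with arrays centred on the median, but -0.04 after quantile normalization, -0.11 with the trend taken off and -0.03 in the deposited table, the last 3 within the scanner SD. SNHG1, the host of SNORD22 and SNORD25 to SNORD31, read 4.69 in HN4, 4.99 in HN4_CR, 5.32 in HN30 and 5.32 in HN30_CR. Its 2 usable probes gave 0.30 and 0.57 in HN4_CR and -0.00 and -0.02 in HN30_CR, and both placed HN30 above HN4, by 0.63 and 0.84. Under the other ways of processing SNHG1 ran from -0.40 to 0.57 in HN30_CR.

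SNHG5 and SNHG16 differed little between resistant and parental arrays in either line. SNHG5, the host of the SNORD50 snoRNAs, had 6 probes, among them 2 overlapping pairs that read nearly the same bases and so are not separate measurements. In the first pair, chr6:86386842-86386901 and chr6:86386850-86386909, 52 bases are shared, and in the second, chr6:86387513-86387571 and chr6:86387513-86387572, 59 are shared (hg19, minus strand; capitals mark the shared bases):
SNHG5 A_19_P00319019: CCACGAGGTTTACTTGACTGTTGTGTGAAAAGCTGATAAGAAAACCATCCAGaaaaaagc
SNHG5 A_19_P00316701: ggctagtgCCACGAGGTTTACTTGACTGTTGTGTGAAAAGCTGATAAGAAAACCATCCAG
SNHG5 A_19_P00321511: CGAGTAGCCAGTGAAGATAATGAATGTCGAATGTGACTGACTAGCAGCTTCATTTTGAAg
SNHG5 A_19_P00322944: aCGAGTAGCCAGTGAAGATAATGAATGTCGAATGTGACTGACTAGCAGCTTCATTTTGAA
The representative probe of SNHG5 read 7.60 in HN4, 7.49 in HN4_CR, 7.28 in HN30 and 7.20 in HN30_CR. All 6 probes gave differences between -0.05 and -0.15 in HN4_CR and between -0.08 and -0.21 in HN30_CR. The first pair differed from each other by less than 0.04 in either line. SNHG16, the host of SNORD1A, SNORD1B and SNORD1C, read 6.52 in HN4, 6.51 in HN4_CR, 6.23 in HN30 and 6.14 in HN30_CR, with differences of -0.02 and -0.10 that lay within the scanner SD. Under the other ways of processing SNHG5 ran from -0.48 to 0.42 and SNHG16 from -0.50 to 0.45 in HN30_CR.

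When the 4 arrays were put in order for each member, 10 of the 30 gaps between neighbours were within 1 scanner SD. HN4 and HN30 were such neighbours for GAS5, SNHG7, SNHG8 and SNHG12. For SNHG5 and SNHG16 the order was HN4, HN4_CR, HN30 and HN30_CR, and neither resistant line differed from its parental line beyond that SD. The median profile of the members, each centred on its own mean, was -0.16 in HN4, 0.00 in HN4_CR, -0.10 in HN30 and 0.12 in HN30_CR. Of 22139 other genes well above background on all arrays, EFCAB3, CSAG1, STARD3 and transcripts ENST00000459875 and ENST00000429099 lay closest to it over the 4 arrays, at Euclidean distances of 0.08.

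The only replicated contrast set the 2 resistant arrays against the 2 parental ones, blocked by cell line, which left 1 residual degree of freedom. With limma and Benjamini-Hochberg adjustment over 29521 genes, 0 genes had an adjusted p below 0.05 (0%), while 2537 (8.59%) had an unadjusted p below 0.05, among them 2 members. By limma SNHG8 was higher by 1.39 ± 0.27 (SE) in the resistant arrays, in 2 of 2 lines, with an adjusted p of 0.461 (unadjusted 0.00506). By limma GAS5 was higher by 0.78 ± 0.26 (SE), in 2 of 2 lines, with an adjusted p of 0.551 (unadjusted 0.036). The other members had limma adjusted p values up to 0.979, and no member passed.

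Of 35 snoRNAs listed as held by the members, 25 had a probe under their own name, for 7 of the hosts, and all 25 probes were well above background on all 4 arrays. A snoRNA probe reads any labelled RNA with its sequence, so the mature snoRNA and the unspliced precursor cannot be told apart here. In HN4_CR 19 of the 25 lay above 0, and 18 had the sign of their host's difference. In HN30_CR 10 lay above 0 and 10 had the sign of their host, and centred on the median 5 lay above 0. Of the 10 with their host's sign there, 5 were held by SNHG1, whose own difference was -0.00. None of the 3 held by SNHG16, with a difference of -0.10, had its sign. Both hosts lay within the scanner SD and changed sign under other processing, so these counts say little about agreement. Probes of snoRNAs held by other genes also lay mostly above 0 in HN4_CR, 127 of 198, and in HN30_CR 90 of 198.

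The 7 snoRNAs of GAS5 had a median difference of 0.11 in HN4_CR and -0.34 in HN30_CR, where 6 of 7 lay below 0 while the host was higher by both probes. Among these 6, SNORD75 at -0.09 and SNORD80 at -0.07 lay within their scanner SD, and SNORD80 was at 0.04 after quantile normalization. SNORD77, the lowest at -1.27, was dim, at -3.26 in HN30 and -4.53 in HN30_CR, and differed by -0.46 with the normexp background. SNORD74 read -1.51 in HN4, -0.19 in HN4_CR, -1.11 in HN30 and -1.51 in HN30_CR, with differences of 1.31 in HN4_CR and -0.40 in HN30_CR. SNORD76 read 0.00 in HN4, 0.46 in HN4_CR, 0.72 in HN30 and 1.23 in HN30_CR, the one snoRNA of GAS5 that lay higher in both lines beyond its scanner SD, though with arrays centred on the median it was at 0.10 in HN30_CR. The snoRNAs of 1 host thus differed among themselves in direction.

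SNORA24, in SNHG8, read 1.41 in HN4, 2.11 in HN4_CR, 3.48 in HN30 and 0.82 in HN30_CR. Its difference was 0.71 in HN4_CR and -2.66 in HN30_CR, the latter opposite to its host. SNORA9, in SNHG15, read 0.61 in HN4, 0.37 in HN4_CR, 2.30 in HN30 and 0.44 in HN30_CR. Its difference in HN30_CR was -1.86, and it was highest in HN30 and next highest in HN4, as its host was. SNORD87, in SNHG6, was at -0.89 in HN4_CR and 0.22 in HN30_CR, with the signs of its host in both lines, but at -0.18 in HN30_CR with arrays centred on the median.

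The 8 snoRNAs of SNHG1 all lay above 0 in HN4_CR, from 0.06 to 1.20, and 5 of 8 lay below 0 in HN30_CR, where the host differed by -0.00. The 3 snoRNAs of SNHG16, whose own differences were near 0, lay above 0 in both lines, SNORD1A within its scanner SD. With arrays centred on the median, SNORD1A was at -0.26 and SNORD1B at -0.03 in HN30_CR. SNORD1C gave the largest differences of the 3, 1.30 in HN4_CR and 1.00 in HN30_CR, the latter 0.60 with arrays centred on the median. The 4 snoRNAs of SNHG12 had medians of 0.54 in HN4_CR and -0.05 in HN30_CR.

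**Figure D4:**
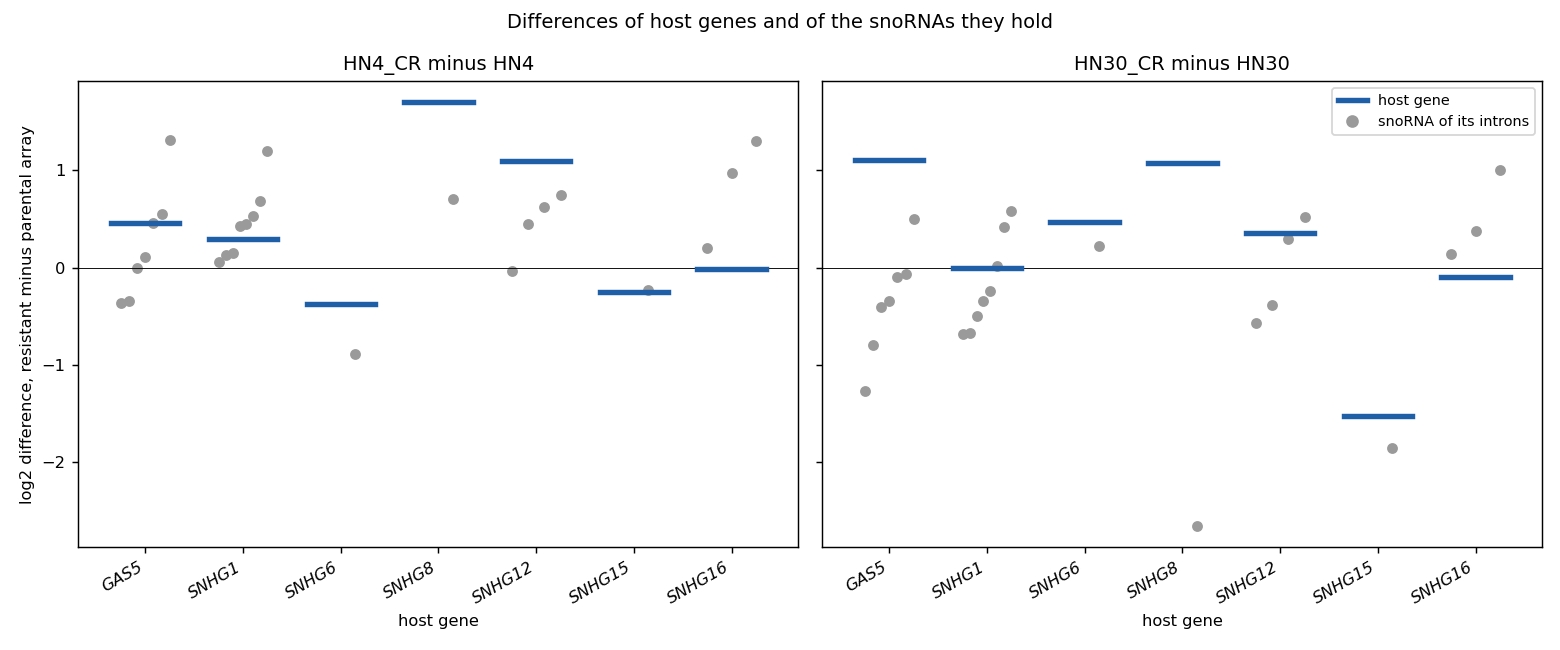
Log2 difference, resistant minus parental array (vertical axis), of each host gene (blue bars) and of the snoRNAs in its introns (grey points), for the 7 host genes with snoRNA probes (horizontal axis), in HN4 (left) and HN30 (right). In HN30_CR 6 of the 7 GAS5 snoRNAs and SNORA24 of SNHG8 lie below 0 while their hosts lie above 1, and SNORA9 lies near its host SNHG15. Among those 6, SNORD75 and SNORD80 lie within their scanner SD of 0.

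The lists of related genes were read in the same way, and their counts stand beside the shares of all genes given above, 9.31% higher and 8.65% lower in HN4_CR and 19.8% higher and 13.3% lower in HN30_CR. Of 22 other snoRNA host genes, 17 were on the array and 15 were counted. In HN4_CR 1 was higher (SNHG28, named C1orf204 on the array) and 1 lower (DANCR), and in HN30_CR 3 were higher (EPB41L4A-AS1, SNHG22 and SNHG28) and 2 lower (DANCR and SNHG9), with medians of 0.02 and -0.11. SNHG28 was dim, at -4.69 in HN4, and with the normexp background or the pseudocount of 16 no gene of the list was higher in HN4_CR. SNHG22 read -6.91 in HN30, not well above background, and -1.87 in HN30_CR, so the size of its difference is uncertain. With the normexp background or the pseudocount the count of higher genes in HN30_CR was 2. The median in HN30_CR was -0.51 with arrays centred on the median, 0.10 after quantile normalization and 0.41 with all probes of each gene averaged. DANCR, another noncoding host gene, was 4.81 in HN4, 3.76 in HN4_CR, 4.57 in HN30 and 2.49 in HN30_CR. It passed in both lines, but in HN4_CR its difference of -1.05 was -0.93 after quantile normalization, and it also fell inside the threshold with arrays centred on the median. EPB41L4A-AS1 was 5.47, 5.59, 4.97 and 7.57 on the same arrays, with a difference of 2.61 in HN30_CR and 0.12 in HN4_CR, and SNHG20 was at 0.05 in HN4_CR and -0.19 in HN30_CR.

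All 8 core proteins of snoRNA particles, which bind box C/D or H/ACA snoRNAs and carry out the modification, were lower by more than 1 in HN30_CR, with a median difference of -1.24, and none was past the threshold in HN4_CR, where the median was -0.04. In HN30_CR 13.3% of all genes were lower by more than 1, and 29.05% of the genes of the host genes' brightness, whose median was -0.55. NOP56, a box C/D core protein, was 6.35 in HN4, 6.01 in HN4_CR, 7.15 in HN30 and 4.41 in HN30_CR. NOP58, its partner in the particle, was 5.90, 5.86, 6.47 and 4.39 on the same arrays. NOP10, an H/ACA core protein, differed by 0.33 in HN4_CR and -1.01 in HN30_CR, the latter -0.47 after quantile normalization. HN30_CR was the lowest array for each of these 3 genes. After quantile normalization of the arrays 3 of the 8 passed in HN30_CR and all 8 lay below 0, with a median of -0.82.

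Of 12 factors that assemble these particles, 6 were lower in HN30_CR, beside the 13.3% of all genes and 29.05% of bright genes given above, and 0 in HN4_CR, with medians of -0.96 and 0.03. The count in HN30_CR was 10 with arrays centred on the median and 4 after quantile normalization. HSP90AA1, the inducible HSP90 chaperone that serves this assembly, was 8.24 in HN4, 8.08 in HN4_CR, 8.89 in HN30 and 7.31 in HN30_CR. SHQ1, an assembly chaperone of H/ACA particles, differed by -0.31 in HN4_CR and -1.20 in HN30_CR, and RPAP3, a subunit of the R2TP cochaperone complex, by 0.18 and -0.40. Of 10 nonsense-mediated decay factors 1, SMG5, was lower in HN30_CR and none passed in HN4_CR, with medians of -0.59 and -0.20. Centred on the median 5 passed in HN30_CR, and after quantile normalization 0. UPF1, the central helicase of that pathway, differed by -0.22 in HN4_CR and 0.25 in HN30_CR, UPF3B by -0.32 and -0.95, and SMG9 by -0.48 and -0.64.

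Among 19 TOP genes that do not code for ribosomal proteins, 1 was higher (EIF2S3) and 2 lower (NCL and EIF3E) in HN4_CR, and 2 higher (EIF2S3 and EIF4B) and 3 lower (NCL, HNRNPA1 and EEF1B2) in HN30_CR, with medians of 0.04 and 0.18. Of all genes 9.31% were higher and 8.65% lower in HN4_CR, and 19.8% and 13.3% in HN30_CR. The balance in HN30_CR depended on the scaling. With arrays centred on the median 0 were higher and 3 lower, with a median of -0.22, and after quantile normalization 4 were higher and 1 lower, with a median of 0.39. The gene of nucleolin, NCL, was lower in both lines, at 7.19 in HN4, 5.83 in HN4_CR, 7.64 in HN30 and 5.31 in HN30_CR. EIF2S3, a subunit of translation initiation factor eIF2, differed by 1.04 and 1.26, but by 0.77 and 0.81 with the normexp background. RACK1, a ribosome-bound scaffold, differed by 0.16 and -0.19. Of 10 regulators of TOP translation 1 was lower in each line, and in HN30_CR 4 were with arrays centred on the median and 0 after quantile normalization. RHEB, the activator of mTORC1, was that gene in both, with differences of -1.40 in HN4_CR and -1.13 in HN30_CR, the latter -0.93 after quantile normalization. LARP1, which binds TOP sequences, differed by -0.45 and -0.60, and RPS6KB1 by 0.09 and -0.03.

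**Figure D5:**
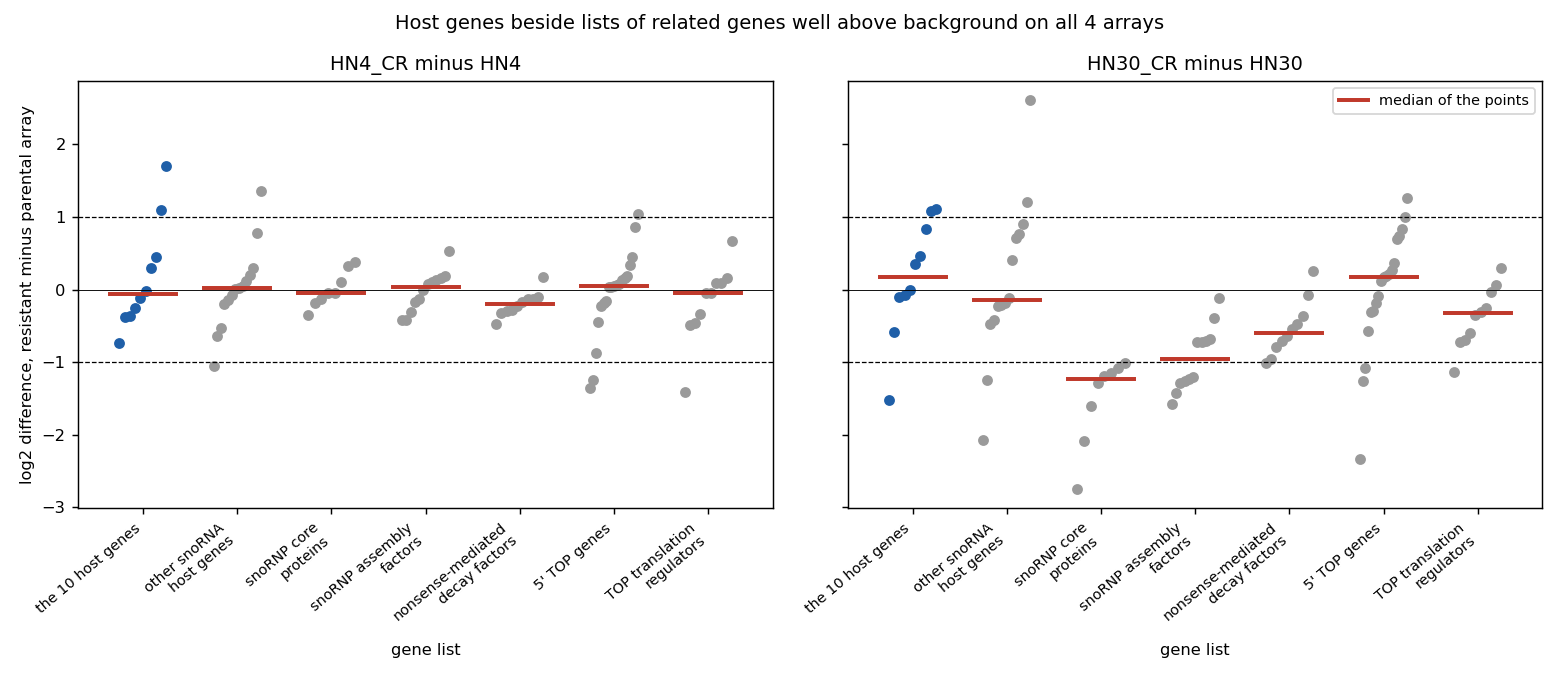
Log2 difference, resistant minus parental array (vertical axis), for the 10 host genes (blue) and for 6 lists of related genes (grey; genes well above background on all 4 arrays), in HN4 (left) and HN30 (right); red bars are the medians of the points and dashed lines a difference of 1. All 8 core proteins of snoRNA particles lie below -1 in HN30_CR (3 of 8 after quantile normalization) and between -0.35 and 0.38 in HN4_CR, while the host genes spread to both sides of 0 in both lines.

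Start sites were read from the RefSeq promoter table (GRCh38.p14), which held 8 of the 10 members, all but SNHG6 and SNHG15. A TOP run was searched as C followed by at least 4 letters that are C or T, on the gene's strand. Read from the annotated start itself, it matched in SNHG12 and SNHG5, as in 4.04% of 27305 promoters, and within 10 bases of it in 5 of the 8, beside 33.3% of all promoters. GAS5, SNHG1 and SNHG3 had no match there. Whether the annotated start is the start used in these cells was not tested, so no match does not show that a TOP run is missing. The windows of 30 bases around the start, 15 of them before it, are shown for the 5 genes with a match. Capitals mark the match that begins nearest the start, which in SNHG12 and SNHG8 has a further c just before it. The windows lie at chr1:28581859-28581888 (minus), chr6:85678719-85678748 (minus), chr9:136728170-136728199 (minus), chr4:118278747-118278776 (plus) and chr17:76557749-76557778 (plus):
SNHG12: tcgcggcttcagcgcCCTTTCTCCCCgccg
SNHG5: gctgcgcacttcggtCTTTTacgtcggcct
SNHG7: gcttcccttctcgtCCTCTgcgtgcgccgg
SNHG8: aaggcctcggcCTTTCacattcgggaagcg
SNHG16: cgcaggggcggtctcgcgttCTTTTCgagg
The core of the cAMP response element, TGACG, searched on both strands over 250 bases before to 50 after the start, was found in SNHG12 and SNHG8 and in 25.0% of all promoters, and the full site TGACGTCA, which overlaps it, was found in none of the 8 and in 1.98% of all.

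Protein-coding genes that start within 1000 bases on the opposite strand were ZBTB37 beside GAS5, at 665 bases, and SLC3A2 beside SNHG1, at 224 bases. ZBTB37, a zinc finger gene, was -3.78 in HN4, -3.69 in HN4_CR, -3.81 in HN30 and -4.24 in HN30_CR. SLC3A2, the heavy chain of amino acid transporters, was 2.61, 2.03, 2.72 and 1.56 on the same arrays, lower in both resistant lines, with differences of -0.57 and -1.16.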

How the data were processed

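RNA of 4 samples, 1 for each condition, was hybridised to Agilent SurePrint G3 human v3 one-colour arrays by a company. The authors deposited the scanner intensity of each spot, made with Feature Extraction 10.7.1.1, which subtracted the background without scaling between arrays, and a table of log2 values whose columns share the same quantiles. The sources used here do not give how that table was made.

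Of 60901 spots, controls left aside, log2 signals were taken, the 75th percentile of all spots of each array (signals of 444 to 496) was subtracted, spots marked as outliers (140 to 204 per array) were left out, and spots of a probe were averaged. A gene took its probe with the highest mean. A gene was higher or lower past a log2 difference of 1 if well above background on the brighter array. Samples were grouped by their labels. The number of arrays limits the precision. The fit used limma 3.58.1 under R 4.3.3 (lmFit, then eBayes with the trend option) for genes well above background on any array; other steps used Python 3.11.15, numpy 2.4.6, pandas 2.3.3 and matplotlib 3.10.9. Procedures were tested on simulated data in which all genes shared 1 spread.

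The members, the gene lists and the hosted snoRNAs were chosen with earlier results of these data known. The text names all members and gives values or ranges of their probes well above background, with probe names for some. From each related list it names the 2 genes with the largest and the 1 with the smallest absolute mean difference of both lines, among those well above background on all 4 arrays. It also names opposite-strand neighbours within 1000 bases, the 5 genes of the most similar profile, and, chosen after their values were seen, single snoRNAs, marker genes and the list members behind counts of 5 or fewer. Alternatives changed the scaling (median, quantile, trend with level, percentile over probes), the background (normexp with offset 50), a pseudocount of 16, the probe of a gene, the handling of dim and outlier spots, the threshold, the deposited log2 table in place of the scanner values, and, in limma, the block, the filter and the trend. RefSeq sequences of GRCh38.p14 were used for start sites only, exons of the probes were not analysed here, and 1 probe sequence and 1 marker gene are not reported here.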

Additional observations from a re-analysis of the deposited data

Results flagged for a closer look

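SNHG6 moved in opposite directions in the 2 lines: the representative probe differed by -0.38 in HN4_CR and by 0.47 in HN30_CR, 0.85 apart with a scanner SD of 0.29. SNHG7 did the same, with -0.36 in HN4_CR and 0.83 in HN30_CR, 1.19 apart. Every probe of either gene had these signs. Both genes kept them under the alternatives run, but in HN30_CR SNHG6 ran from 0.07, with arrays centred on the median and within its scanner SD of 0.20, to 0.96, and SNHG7 from 0.43 to 1.35. Each condition having 1 array, no test of the gap between the lines was made, so it was not tested.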

How the results depend on the processing

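With only 1 array per condition, no test within a cell line was possible. Resistant and parental arrays were paired by cell line, as the block in limma. Leaving out an array leaves no residual degrees of freedom in this blocked fit. In HN4_CR the counts of 2 members higher and 0 lower stayed as they were under all other scalings and background choices; past a log2 difference of 2 the count of higher members was 0, and past 0.5 the count of lower members was 1. In HN30_CR the count of higher members was 0 with arrays centred on the median, 0 with the percentile over probes, 1 with the probes of each gene averaged and 0 past 2. It was 3 (GAS5, SNHG7 and SNHG8) after quantile normalization, with the trend taken off and in the deposited table. With probes averaged, SNHG8 was at 0.77 in HN30_CR, a mean that took in its probe not well above background on any array. The count of lower members there was 0 after quantile normalization, 0 in the deposited table, 0 past 2 and 2 past 0.5. The members' median in HN30_CR was -0.23 with arrays centred on the median, 0.70 after quantile normalization, 0.63 with the trend taken off and 0.70 in the deposited table. The cause of these shifts was not tested. In HN30_CR the sign of the difference was kept under all alternatives run for GAS5, SNHG3, SNHG6, SNHG7, SNHG8 and SNHG15, but not for SNHG1, SNHG5, SNHG12 and SNHG16; in HN4_CR it was kept for all members except SNHG5 and SNHG16. By limma the adjusted p of SNHG8 ran from 0.314 without the cell line as a block to 0.667 without the trend, and 0 genes passed in any of the 4 fits. Single arrays and dim probes limit what can be said of sizes.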

Other observations

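Over all 312 probes named for snoRNAs, 223 were well above background on all 4 arrays. Their median difference was 0.26 in HN4_CR, where 8.97% were higher and 3.14% lower by more than 1, beside 9.31% and 8.65% of all genes. In HN30_CR the median was -0.10, and 7.17% were higher and 18.4% lower, beside 19.8% and 13.3% of all genes. Differences in HN30_CR ran from -4.20 to 1.94 and in HN4_CR from -1.37 to 1.59. Among the members' snoRNAs, SNORA24 had the lowest difference in HN30_CR, -2.66, and SNORD74 the highest in HN4_CR, 1.31. This set of probes was chosen after those of the members had been seen.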
